A study of Mus musculus with 24 samples.

Results

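Dgcr8 and 9 partner genes of miRNA processing were followed in the prefrontal cortex of Df(16)A+/- mice, which carry a single copy of Dgcr8. The members were chosen by name as the core steps of the pathway (Dgcr8, Drosha, Xpo5, Dicer1, Tarbp2, Prkra, Ago1, Ago2, Ddx5 and Ddx17). All 10 had a row naming that gene alone among the 18821 genes measured. Where a gene had several such rows, the one with the highest mean over the 24 arrays was used. The question was whether the partners are higher or lower in mice that have lost one Dgcr8 copy.

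The study compared 12 Df(16)A+/- mice with 12 wild-type littermates, all males 8 weeks old on a C57BL6/J background. The mutants are heterozygous for Df(16)A (written Df16(A)+/- among the labels), a deletion in chromosome 16 made to model the human 22q11.2 microdeletion. It removes Dgcr8 together with its neighbours, so loss of Dgcr8 cannot be told apart from loss of the other deleted genes. No other allele or treatment is named for either group. The labels number the arrays as replicates and say nothing more of their origin, so p-values measure the spread between these arrays. Throughout, each array is counted as a separate mouse, which is an assumption. Whole-tissue RNA was measured, in which a change per cell and a change in the cells present cannot be told apart.

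miRNAs are cut from long primary transcripts in a fixed order of steps. In the nucleus the Microprocessor, made of the RNase III enzyme Drosha and the double-stranded RNA binder Dgcr8, releases a hairpin, and the helicases Ddx5 and Ddx17 assist it on a subset of transcripts. Exportin-5, encoded by Xpo5, carries the hairpin to the cytoplasm, where Dicer1 with its binding partners Tarbp2 and Prkra trims it to a duplex that is loaded on an Argonaute protein. The Microprocessor also cuts hairpins within the Dgcr8 messenger itself, a known feedback loop in which less Microprocessor leaves more Dgcr8 messenger intact.

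Those hairpins are annotated as miRNA genes, and their mature sequences are shown because they are the part of the Dgcr8 transcript that the Dgcr8 protein itself helps to cut. RefSeq (GRCm38.p6) places 4 mature miRNAs inside the Dgcr8 gene, on its own strand, the minus strand of chromosome 16. The first is at chr16:18284248-18284268, the second at chr16:18284288-18284310, the third at chr16:18284562-18284583 and the last at chr16:18284602-18284623. Each is written 5′ to 3′ with its seed, bases 2 to 8, in capitals.
mmu-miR-1306-3p: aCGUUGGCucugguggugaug
mmu-miR-1306-5p: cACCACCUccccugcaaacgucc
mmu-miR-3618-3p: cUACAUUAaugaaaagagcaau
mmu-miR-3618-5p: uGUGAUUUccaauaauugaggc
The genes annotated for them, Mir1306 and Gm24572, had no row of their own among the genes measured. The levels of these 4 miRNAs and their precursors are not analysed here.

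Among the other 9 genes, Xpo5 and Ddx5 also have annotated miRNAs within them on the same strand. The pair in Xpo5 comes from Mir693, at chr17:46231551-46231571 and chr17:46231581-46231603, and is shown because Mir693 has a row of its own in these data. All 8 mature miRNAs inside the 3 host genes have different seeds.
mmu-miR-693-5p: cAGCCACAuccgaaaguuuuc
mmu-miR-693-3p: gCAGCUUUcagauguggcuguaa

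The arrays were alike, with correlations between 0.994 and 0.997 across genes, and array medians between 6.71 and 6.82. The mutant arrays of replicates 5, 9 and 10 lay apart on the first principal component (14.7% of the variance), at -19.27 to -11.91 against -8.96 for the next array and 9.70 at the far end. The main results on the members, the pathway lists and the precursor mean are therefore also given without them. The tissue label was checked on markers: the mean over 7 neuron markers lay between 12.39 and 12.48 in all mice, and over 5 cortical layer markers between 9.98 and 10.21, against a median of 7.58 for all genes. Over 5 of 7 listed blood markers it ranged from 5.62 to 6.48 in mutants and from 5.93 to 8.62 in wild types. Each of those 5 had a log2 fold change below 0 and none passed the test. Ngp had -1.20, the lowest of all genes, S100a8 -0.67 and S100a9 -0.46 (unadjusted p = 0.0101, 0.0463 and 0.0371 in the limma fit). Camp had -0.24 and Alas2 -0.05 (unadjusted p = 0.153 and 0.721 in the limma fit). The part of these genes in the values below was not tested. Of the 5 cortical layer markers 4 lay below 0, with Rorb at -0.09 and Tbr1 at -0.06 (unadjusted p = 0.0453 and 0.038 in the limma fit). Of 3 measured striatum markers of 5 listed, 2 lay above 0, Ppp1r1b at 0.13 and Drd2 at 0.12 (unadjusted p = 0.00519 and 0.0376 in the limma fit), and their mean ranged from 7.84 to 8.02 in mutants and from 7.72 to 7.96 in wild types. None of these passed after adjustment, nor did any marker of astrocytes, oligodendrocytes, microglia, endothelium or choroid plexus, and the part of such shifts in the values below was not tested.

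Dgcr8 fell in the mutants, with a change of -31.1% (95% interval -33.9% to -28.3%). In wild types the log2 values ran from 8.69 through a median of 8.80 to 8.84, and in mutants from 8.15 through 8.25 to 8.42. The groups did not overlap, and the lowest wild type lay above the highest mutant, replicate 4. The means were 8.79 ± 0.05 (SD, n = 12) and 8.26 ± 0.08, a log2 fold change of -0.54 ± 0.03 (SE; limma, adjusted p = 5.2e-13). Over all genes, 0.228% were called lower and 0.531% higher in mutants at an adjusted p under 0.05. Of the 43 called lower 20 were listed as deleted, Dgcr8 among them, and of the 100 called higher 59 were miRNA precursor genes. By array number, the log2 fold change was -0.57 ± 0.05 in arrays 1 to 12 and -0.50 ± 0.04 in arrays 13 to 24, and it was -0.53 ± 0.03 without the 3 arrays that lay apart.

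**Figure D1:**
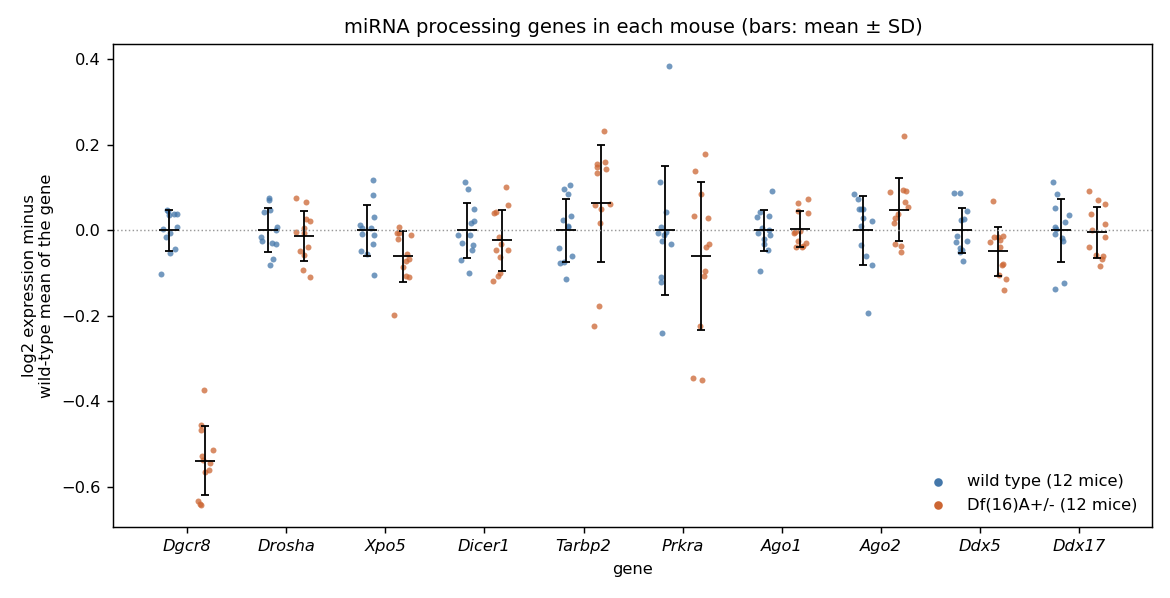
Log2 expression of the 10 genes in each mouse (y axis, minus the wild-type mean of that gene) by gene (x axis); blue points are 12 wild types, orange points 12 mutants, and bars the mean ± SD. The Dgcr8 mutants all lie below the wild types, and in the other 9 genes the groups overlap.

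None of the 9 partners passed the test in either direction (limma, lowest adjusted p = 0.369). At an unadjusted p under 0.05 there was 1 of 9, Xpo5, against 11.9% of all genes. The log2 fold changes ran from -0.06 to 0.06, with 3 above 0, 6 below 0 and a median of -0.01, against -0.001 for all genes. Of all genes with a mean of at least 7, as 8 of the 9 partners had, 64.0% lay below 0, with a median of -0.015. Without the 3 arrays that lay apart the partners ran from -0.06 to 0.09, with 3 of 9 below 0. The 95% intervals, which are not adjusted for their number, ran from -12.4% for the lowest bound, in Prkra, to 11.3% for the highest, in Tarbp2. An interval holds the changes that 12 arrays a group leave possible, and does not show that a partner's level stayed the same. That of Xpo5 lay wholly below 0, although Xpo5 did not pass after adjustment. Over all genes the smallest absolute log2 fold change that passed was 0.089. This is not a limit for the partners, whose SEs ran from 0.022 to 0.064, since a larger SE needs a larger change. Larger changes also went uncalled, such as -0.094 ± 0.034 (SE) in Tardbp and 0.21 ± 0.06 in Trim71, 2 pathway genes described below. Changes in a partner above 0.089 could therefore go uncalled too.

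Drosha, the nuclease that Dgcr8 holds on its substrate, had log2 values from 9.70 through a median of 9.78 to 9.86 in wild types and from 9.67 through 9.78 to 9.86 in mutants. The ranges nearly coincide, and 2 mutants lay below every wild type and none above. The log2 fold change was -0.01 ± 0.03 (SE), with an interval from -4.4% to 2.7%.

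The 2 DEAD-box helicases were the brightest of the 10 rows. Ddx5 ran from 11.36 through 11.41 to 11.52 in wild types and from 11.29 through 11.40 to 11.50 in mutants. Its groups overlapped, although 5 mutants lay below every wild type, and the log2 fold change was -0.05 ± 0.03 (limma, adjusted p = 0.46), with an interval from -6.7% to 0.26%. Ddx17 ran from 10.61 through 10.75 to 10.86 in wild types and from 10.66 through 10.74 to 10.83 in mutants. All mutants of Ddx17 lay within the wild-type range, and the log2 fold change was -0.004 ± 0.03, with an interval from -4.3% to 4.0%. A further Ddx5 row, dimmer than the one used, had -0.03 ± 0.02.

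Xpo5, the exporter, had the smallest p of the partners. Its log2 values ran from 9.03 through 9.14 to 9.25 in wild types and from 8.94 through 9.08 to 9.15 in mutants. The groups overlapped, but 11 of the 12 mutants lay at or below the wild-type median and 3 lay below every wild type. The log2 fold change was -0.06 ± 0.03 (SE; unadjusted p = 0.0323 and adjusted p = 0.369 in the limma fit), an interval from -7.7% to -0.38%. By array number, arrays 1 to 12 gave -0.10 ± 0.04 and arrays 13 to 24 gave -0.03 ± 0.04. The Mir693 row, looked up because that gene lies within Xpo5, had wild types at 5.55 ± 0.13 (SD, n = 12) and mutants at 5.67 ± 0.17, a value of the opposite sign that did not pass (limma, adjusted p = 0.405).

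Dicer1, the cytoplasmic nuclease, ran from 9.32 through 9.41 to 9.54 in wild types and from 9.30 through 9.38 to 9.52 in mutants. The groups overlapped, with 2 mutants below every wild type, and the log2 fold change was -0.02 ± 0.03 (SE), with an interval from -5.6% to 2.6%. Arrays 1 to 12 gave -0.03 and arrays 13 to 24 gave -0.05, while the fit without the 3 arrays that lay apart gave 1.53e-05.

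Tarbp2, a double-stranded RNA binder that stabilises Dicer, had the largest value above 0 of the partners. It ran from 7.68 through 7.80 to 7.90 in wild types and from 7.57 through 7.89 to 8.02 in mutants. The mutants were more widely spread (SD 0.14 against 0.07), with 6 above every wild type and 2, replicates 4 and 9, below every wild type. The log2 fold change was 0.06 ± 0.04 (SE; limma, adjusted p = 0.603), with an interval from -1.9% to 11.3%. A dimmer row also named Tarbp2 had -0.02 ± 0.08; the 10 rows nearest to it in number are on other chromosomes, most often chromosome 6, while Tarbp2 is on chromosome 15, so that row may not report Tarbp2.

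Prkra, also known as PACT, a related double-stranded RNA binder, had the dimmest row of the 10 and the widest interval. It ran from 6.41 through 6.64 to 7.03 in wild types and from 6.30 through 6.61 to 6.83 in mutants. The groups overlapped widely, with SDs of 0.15 and 0.17, and the log2 fold change was -0.06 ± 0.06 (SE), with an interval from -12.4% to 5.0%. Without the 3 arrays that lay apart it was 0.02 ± 0.06, and over arrays 1 to 12 it was -0.12 ± 0.09.

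Of the Argonautes, which hold the mature miRNA and its target, Ago1 had the narrowest interval of the 10 genes. It ran from 9.75 through 9.84 to 9.93 in wild types and from 9.80 through 9.83 to 9.91 in mutants, all within the wild-type range. Its log2 fold change was 0.004 ± 0.02 (SE), with an interval from -2.8% to 3.5%. Ago2, the Argonaute able to cut its target, ran from 9.84 through 10.06 to 10.11 in wild types and from 9.98 through 10.08 to 10.25 in mutants. The groups overlapped, with 4 mutants above every wild type, and the log2 fold change was 0.05 ± 0.03 (limma, adjusted p = 0.581), with an interval from -1.2% to 8.4%. A dimmer row of Ago2 had -0.01 ± 0.04, so the 2 rows differ in sign.

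**Figure D2:**
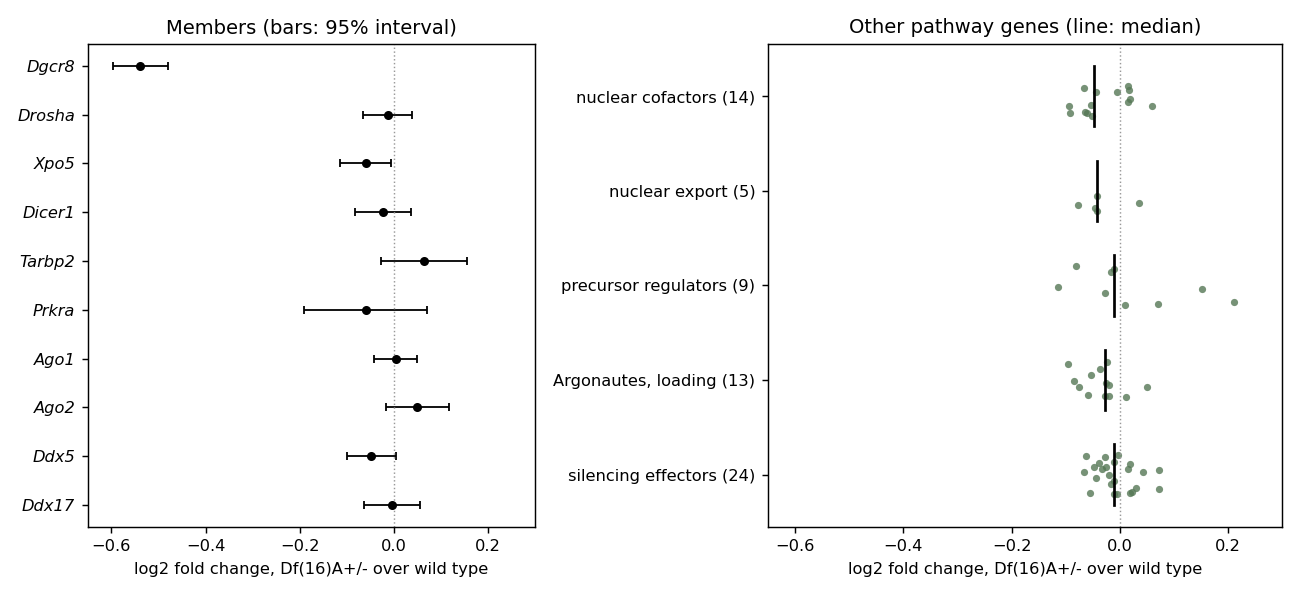
Log2 fold change of mutants over wild types (x axes). On the left are the 10 genes with 95% intervals; on the right each point is 1 of 65 other pathway genes, by role, and the line is the median of its list. Dgcr8 lies at -0.54 and all 9 partners lie between -0.06 and 0.06.

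The search was widened to 5 lists of other genes that act on miRNAs or carry out their silencing. Of 74 genes listed, 65 had a row naming them alone, and none of the 65 passed the test (limma, lowest adjusted p = 0.156). At an unadjusted p under 0.05 there were 16 of 65, or 24.6%, against 11.9% of all genes. Values below 0 were found for 45 of 65, with a median of -0.02. Among genes with a mean of at least 7, 43 of 60 pathway genes (71.7%) lay below 0, as did 64.0% of all such genes. Over all genes, of any level, 51.0% lay below 0. After quantile normalization 38 of 65 pathway genes (58.5%) lay below 0, against 51.2% of all genes, and 10 (15.4%) had an unadjusted p under 0.05, against 10.4%. Without the 3 arrays that lay apart 42 of 65 (64.6%) lay below 0, against 51.0%, and 10 (15.4%) had an unadjusted p under 0.05, against 9.09%.

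The 14 nuclear cofactors of the Microprocessor had a median of -0.05 and none passed. Values below 0 were found for 9 of them (64.3%), against 64.0% of all genes with a mean of at least 7, as all 14 had. The smallest p-values were those of Tardbp, which encodes the RNA-binding protein TDP-43, at -0.09 ± 0.03 (SE), and Adarb1, an RNA-editing enzyme, at -0.07 ± 0.03 (limma, adjusted p = 0.258 and 0.292). In Adarb1, 8 mutants lay below every wild type and 1 above. In this list 7 of 14 had an unadjusted p under 0.05 in the limma fit, against 11.9% of all genes. Of the 7, Srrt lay above 0, at 0.06 ± 0.03, and the others below. The count became 4 (28.6%) without the 3 arrays that lay apart, against 9.09% of all genes. After quantile normalization it was 3 (21.4%), against 10.4%. Arrays 1 to 12 and arrays 13 to 24, with fewer samples, each gave 1 of 14 (7.14%), against 9.05% and 9.99% of all genes.

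Of 5 genes of nuclear export none passed and the median was -0.04. Ran, the GTPase that loads exportins, had -0.08 ± 0.03 and Xpot, the exportin of tRNA, -0.04 ± 0.03 (limma, adjusted p = 0.376 and 0.537).

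Of 9 regulators of precursors none passed and the median was -0.01. Trim71, a let-7 target known from stem cells, had 0.21 ± 0.06 and Lin28a, which blocks let-7 maturation, 0.15 ± 0.06 (limma, adjusted p = 0.156 and 0.32). Both were dim, with wild-type means of 6.29 and 5.23. Without the mutant array of replicate 4, Trim71 passed, at 0.25 ± 0.06 (limma, adjusted p = 0.0288), and this was the only pathway gene that any of the 24 omissions brought past the threshold.

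The 13 other Argonaute and loading genes had a median of -0.03, with 11 below 0, and none passed. Of all genes with a mean of at least 7, 64.0% lay below 0. Fkbp4, a co-chaperone, had -0.10 ± 0.03, with 7 mutants below every wild type, and Hsp90aa1, the chaperone it works with, -0.06 ± 0.02 (limma, adjusted p = 0.217 and 0.242).

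The 24 silencing effectors had a median of -0.01, with 16 below 0, and none passed. The share below 0 among all genes with a mean of at least 7 was 64.0%. Tnrc6c, a GW182 protein that links Argonautes to deadenylases, had 0.07 ± 0.03, with 6 mutants above every wild type, and Pan2, a deadenylase subunit, 0.07 ± 0.03 (limma, adjusted p = 0.317 and 0.376).

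Dgcr8 was then set beside the genes lost with it. Beside Dgcr8, 24 genes of the deleted segment and the miRNA precursor gene Mir185 were measured. Mir185 was left out of the comparison, since its row was taken to report a precursor that Dgcr8 itself acts on. It had a wild-type mean of 7.77 and a log2 fold change of -0.16 ± 0.06 (SE; limma, adjusted p = 0.32), a smaller decrease than that of Dgcr8. Of the 24, 17 had a wild-type mean of at least 7, a limit used because background signal can compress the fold change of dim rows. Each of these 17 had a larger decrease than Dgcr8. Their log2 fold changes had a median of -0.73 and ran to -0.88 in Slc25a1, the mitochondrial citrate carrier, against -0.54 for Dgcr8 and -1 for an exact loss of one copy.

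The difference was measured in each mouse as Dgcr8 minus the mean of the 17 genes. It ran from -0.75 through a median of -0.63 to -0.55 in wild types and from -0.54 through -0.45 to -0.28 in mutants. The groups did not overlap, and the mean was higher in mutants by 0.19 on the log2 scale, at -0.44 ± 0.08 (SD, n = 12) against -0.63 ± 0.06 (two-sided permutation p = 2e-05, which is the lowest value 100000 resamples can reach). This difference depends on which deleted genes are compared. Against all 24, with no limit on level, it was 0.012 (permutation p = 0.702), and with Mir185 as well it was -0.0036 (permutation p = 0.905); with Mir185 added to the 17 it was 0.16 (permutation p = 2e-05). These 3 comparisons were added after the values had been seen. It was 0.14 against the 9 genes within 1 log2 unit of Dgcr8, 0.13 with the median in place of the mean, and 0.19 without the 3 arrays that lay apart. By array number, arrays 1 to 12 gave 0.18 and arrays 13 to 24 gave 0.21. The permutation p of these last 5 values lay between 4e-05 and 0.00253.

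The comparison was also made gene by gene, a step chosen after the values had been seen. In 15 of 17 pairs the difference passed at an adjusted p under 0.05 (permutation tests, two-sided, adjusted over the 17 pairs). The nearest genes in level were Hira, a histone chaperone gene, at -0.64 ± 0.03 (SE), and Dgcr6, at -0.62 ± 0.04. Dgcr8 fell less than Hira by 0.10 (95% interval 0.03 to 0.17; permutation test, adjusted p = 0.0125). Its difference from Dgcr6, 0.09 (-0.005 to 0.18), and that from Arvcf, a catenin gene, 0.07 (-0.03 to 0.18), did not pass (permutation tests, adjusted p = 0.0682 and 0.162). The 17, each with a larger decrease as said above, include 4 that were dimmer than Dgcr8, which is no further result. Among the 7 deleted genes under the limit, Cdc45 and Gnb1l passed the limma test with smaller decreases than Dgcr8, -0.30 and -0.27, from wild-type means of 6.25 and 6.26. The other 5 did not pass: Gsc2 lay above 0, at 0.06 ± 0.07 (SE), and the smallest decrease was that of Vpreb2, -0.001 ± 0.06. Arvcf, Cdc45 and Gnb1l are named because of their values. Background signal within the Dgcr8 row was not measured, and its part in the smaller decrease was not tested.

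**Figure D3:**
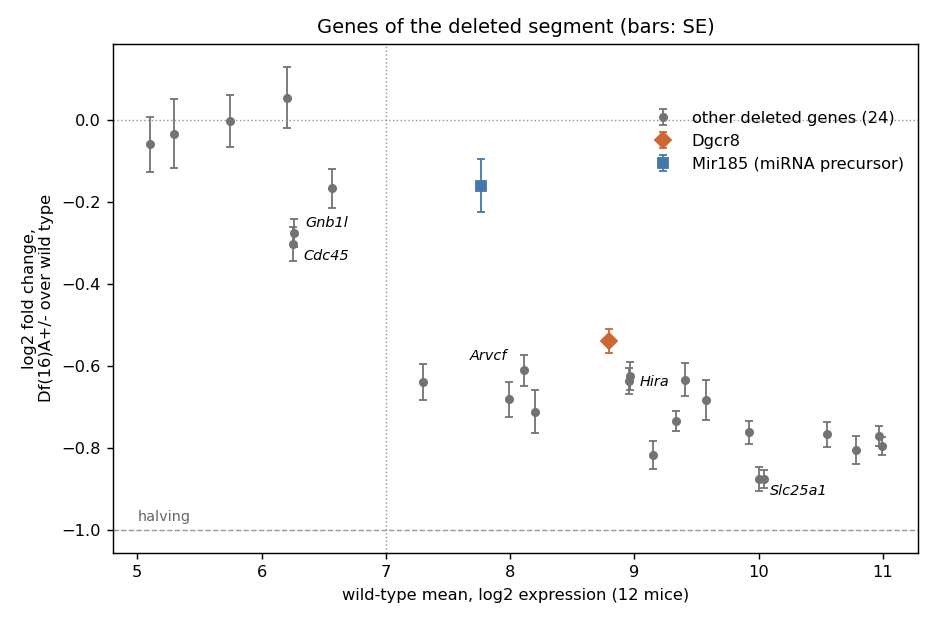
Log2 fold change (y axis, bars SE) against the wild-type mean log2 expression (x axis) for Dgcr8 (orange diamond) 24 other deleted genes (grey) and the precursor gene Mir185 (blue square); the dashed line at -1 is an exact loss of one copy and the vertical dotted line marks the limit of 7. To the right of that limit Dgcr8, at -0.54, has a smaller decrease than the 17 grey points and a larger one than Mir185, at -0.16.

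The rows named to miRNA precursors were averaged in each mouse. They were taken to report RNA that still holds the hairpin, and their mean to lie downstream of Dgcr8. Whether each of these precursors depends on Dgcr8 was not tested. Over 303 precursor genes the mutants averaged 5.82 ± 0.03 (SD, n = 12), with a range of 5.78 to 5.86. The wild types averaged 5.65 ± 0.07, with a range of 5.53 to 5.75 that did not reach the mutants. These means lay below the limit on level used for the deleted genes. Background, which was not measured, can therefore compress differences in the precursor mean. Without the 3 arrays that lay apart the mutants averaged 5.83 ± 0.03 (SD, n = 9). Within a genotype, no relation between this mean and Dgcr8 passed. In mutants Pearson's r was -0.42 and Spearman's rho -0.47 (permutation p = 0.168 and 0.125), and r was -0.31 without the 2 mice farthest from the Dgcr8 median. In wild types r was 0.24 and rho 0.24 (permutation p = 0.448 and 0.456), and 0.12 without the 2 farthest mice. After quantile normalization r was -0.07 in mutants and 0.50 in wild types (permutation p = 0.816 and 0.0936), and with array number regressed out it was -0.41 and 0.09. Without the 3 arrays that lay apart r was -0.59 in mutants (exact permutation p = 0.0985, n = 9). The adjusted p-values over the family of 20 relations were 0.842 and 0.982 (permutation).

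**Figure D4:**
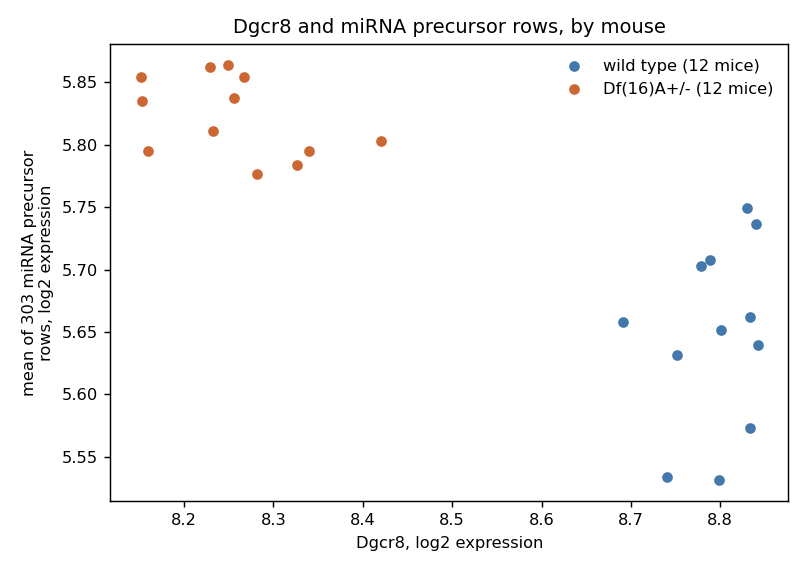
Mean log2 expression of 303 miRNA precursor rows (y axis) against log2 expression of Dgcr8 (x axis), 1 point a mouse, blue for wild type and orange for mutant. The 2 genotypes separate on both axes, and within each no relation passed the permutation test.

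Dgcr8 was compared in the same way with each partner within each genotype, the other 18 relations of the family. Pearson's r ran from -0.64 to 0.49 and none passed (lowest adjusted p = 0.525, permutation). The lowest was that with Tarbp2 in mutants, where r was -0.64 and rho -0.76 (permutation p = 0.0263 and 0.00552, n = 12). Without the 2 mice farthest from the Dgcr8 median, an omission that narrows the range of Dgcr8, r was -0.34. The size of r thus changed with the mice kept. Without the 3 arrays that lay apart, of which replicate 9 was one, it was -0.83 (exact permutation p = 0.00652, n = 9; adjusted over the 10 mutant relations, p = 0.0652). In wild types the same r was -0.003. Prkra had r = 0.48 in mutants and 0.72 without those arrays (exact permutation, adjusted p = 0.136, n = 9).

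The genes whose values went most closely with those of Dgcr8 were sought over the 24 arrays. Of the 25 genes with the highest r, which reached 0.97, 19 were listed as deleted genes, which share its genotype difference. Of those not listed, Car15 had the highest r, 0.91, with a log2 fold change of -0.57. Car15 was not among the deleted genes compared with Dgcr8 above, and whether the deletion includes it was not tested. After each genotype mean was subtracted, the deleted genes with a mean of at least 7 had r between -0.40 and 0.31. The 5 highest of all genes were then Mettl4 (0.77), Mapk10 (0.75), Kcnj2 (0.73), Extl3 (0.73) and Akap5 (0.72), none of which passed the genotype test. They are the highest of all genes measured, on shared arrays, and are given as a description. The 9 partners had values between -0.49 and 0.27.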

How the data were processed

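Prefrontal cortex RNA of 24 mice was labelled from 100 ng of total RNA for Affymetrix arrays, per the labels' protocols. The deposited values are log2 expression per row and array, made by the authors with RMA, per the submitters' processing notes; the log2 scale is read from their range, 1.82 to 14.49. The build was not given in the sources used here, nor was the version of RMA, and no detection call or background level was used. Of 35556 rows, 21219 had 1 gene symbol in the platform annotation and 1880 had several. Symbols were updated by Entrez identifier through a RefSeq table of GRCm38.p6, which matched 18790 of 18821 genes.

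Genotypes were compared with limma 3.58.1 in R 4.3.3 (lmFit, eBayes, genotype as the only term), and p-values adjusted over 18821 genes by Benjamini-Hochberg. Permutation tests (scipy 1.17.1) used 100000 resamples. Both steps were tested on simulated data. Genes were named by rule: the members and all their rows, the 2 smallest p-values of each pathway list, deleted genes at the extremes and nearest to Dgcr8 in level, and the 5 genes most like Dgcr8. Members and lists were chosen with earlier results of these data known. Whether the replicate numbers shared by the genotypes pair the mice is not settled here, and the main fit did not pair them. The median same-number correlation of deviations was 0.10, against -0.01 for different numbers. Of 12 same-number correlations 6 were over 0.1, with a range of -0.08 to 0.31. Mir185 was left out of the comparison of deleted genes. Alternatives covered normalization, moderation, weights, filters, rows per gene, array order, a replicate block and omitted arrays. miRNA sequences are RefSeq's.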

Additional observations from a re-analysis of the deposited data

How the results depend on the processing

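Dgcr8 passed under all 37 alternatives, at -0.57 to -0.50, and no partner passed under any; the lowest adjusted p of a partner was 0.264, for Xpo5 (limma). Signs of Ddx17, Ago1, Drosha, Dicer1 and Prkra changed in 11, 6, 2, 1 and 1 of these. Prkra, with a mean under 7, gave no value under the stricter filter. The count of other pathway genes that passed was 0 to 1 with each array left out and 0 otherwise. Dgcr8 fell less than the mean of the deleted genes of mean at least 7 under 7 alternatives, all on those genes or a part of them, by 0.13 to 0.21. In 3 more added after seeing the data, adding Mir185 to those genes gave 0.16, all 24 other deleted genes gave 0.012, which did not pass (permutation p = 0.702), and all 24 with Mir185 gave -0.0036, a reversed sign (permutation p = 0.905). With the replicate block, Dgcr8 changed by -0.54 and no call on the members or the other pathway genes changed; 37 genes were lower and 110 higher, and 2 of 12 mutants correlated best with the wild type of their own number.

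Over all genes, 43 were lower and 100 higher. With trend and robust moderation 66 were lower. With genes of mean at least 6, 72 were lower, and with at least 7, 67 lower and 61 higher, over fewer genes tested. Over arrays 1 to 12, 23 were lower and 35 higher, and over arrays 13 to 24, 22 and 35, with fewer samples. The cause of the change under moderation was not tested. Median centring moved the median of all genes from -0.001 to 0.01. The number of arrays limits the precision, and dim rows, Prkra among them, can be compressed by background, which was not measured.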
